A study of Mus musculus with 16 samples.

Results

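The genes described here are 9 genes of the bone morphogenetic protein (BMP) pathway, followed through bulk RNA-seq of mouse knee joints. They are the ligands Bmp2, Bmp4, Bmp6 and Gdf5, the secreted antagonists Grem1, Nog and Chrdl1, and the receptors Bmpr1a and Bmpr2. They were chosen by gene symbol, and all 9 were found among the 13733 genes listed for 16 libraries. BMPs are secreted dimers of the TGF-beta superfamily. They bring together type I and type II receptor kinases at the cell surface, and the type I kinase phosphorylates Smad1, Smad5 and Smad9, which enter the nucleus with Smad4. Antagonists bind the ligands outside the cell and keep them from the receptors. The pathway lays down cartilage and bone and patterns synovial joints, and Gdf5 marks the zones where joints form in the embryo.

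The study asked how the joint responds to injury in mice with and without Trem2, a surface receptor of myeloid cells. Its 4 groups held 4 libraries each. WT D0 was uninjured and WT D7 was taken 7 days after injury, both from male C57BL/6J mice, and Trem2-/- D0 and Trem2-/- D7 were the same states in male mice of the same background with both Trem2 copies knocked out in every cell (the em2Adiuj allele). Mice were injured at 10 weeks of age by a single compression of the tibia that ruptured the anterior cruciate ligament, and injured mice received buprenorphine and saline for pain. The age given in the sample labels is 16 weeks for all samples, and the labels' extraction text names homogenized joints of control and diabetic mice, whereas the study's methods describe cells freed from the joint with collagenase. Groups were taken from genotype and injury state, on which both sources give the same assignment. For cell isolation the methods refer to the single-cell experiment, where immune cells were separated by beads against the leukocyte surface protein CD45, and which fraction, if any, entered the bulk libraries was not given in the sources used here. Each library is taken as a separate sample as labelled, and p-values measure the spread between these samples.

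Reads on the listed genes numbered 11567073 to 32867818 per library, and 3 reads corresponded to 0.101 to 0.250 CPM, counting error only. Trem2, the targeted gene, was 2.51 to 5.61 CPM at WT D0 and 0.948 to 2.68 at Trem2-/- D0, and 10.7 to 22.5 at WT D7 against 3.42 to 4.84 at Trem2-/- D7, so that the genotypes overlapped at D0 and not at D7. Markers of other cell types moved with injury. The summed level of 6 pan-leukocyte genes was 2869 to 5735 CPM at WT D0, 1641 to 3530 at WT D7, 3575 to 6356 at Trem2-/- D0 and 1282 to 1620 at Trem2-/- D7, and 5 of the 6 genes fell in WT and 6 of 6 in Trem2-/- mice. Leukocyte types did not move alike. Of 6 macrophage genes, 5 rose in both genotypes and Cd68 fell in Trem2-/- mice, while all 5 neutrophil and all 3 B cell genes fell in both. All 6 chondrocyte genes and 4 of 6 fibroblast genes rose in both genotypes, and 0 of 4 endothelial genes passed the limma test in either, with 0 of 4 also at an unadjusted p under 0.05. No gene of these lists was at 0 in all libraries of a group.

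Upstream sequence is shown first, because BMP signalling acts on promoters through Smads. RefSeq sequence of the 250 bases before the start of transcription (GRCm38.p6, the mm10 build) was matched for 5 of the 9 genes, namely Bmpr1a, Bmpr2, Bmp4, Bmp6 and Grem1. No window was matched for Gdf5, Bmp2, Nog or Chrdl1, each of which rose after injury in at least 1 genotype. Capitals mark GGCGCC, the GC-rich element known to bind BMP-activated Smads, and GTCT or its reverse complement AGAC, the Smad box, searched on both strands. Bmpr1a, a receptor that rose in both genotypes, is given at chr14:34502688-34502796 on the minus strand, the stretch outside annotated exons. That stretch lies inside the gene as annotated in GENCODE, which ends at 34503341. Grem1 (chr2:113758649-113758898, minus strand) and Bmp4 (chr14:46390670-46390919, minus strand) were not called in any comparison. Bmpr1b (chr3:141982265-141982514, minus strand, 1 of its 3 start sites) and Chrd (chr16:20732877-20733126, plus strand) are a receptor and an antagonist from the wider pathway list that rose in both genotypes. The Bmpr1b window also lies inside its annotated gene (141837136 to 142169425), downstream of the GENCODE start. All are written 5′ to 3′ on the gene's strand.
Bmpr1a: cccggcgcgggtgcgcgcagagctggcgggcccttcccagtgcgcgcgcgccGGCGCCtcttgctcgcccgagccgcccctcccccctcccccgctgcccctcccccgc
Grem1: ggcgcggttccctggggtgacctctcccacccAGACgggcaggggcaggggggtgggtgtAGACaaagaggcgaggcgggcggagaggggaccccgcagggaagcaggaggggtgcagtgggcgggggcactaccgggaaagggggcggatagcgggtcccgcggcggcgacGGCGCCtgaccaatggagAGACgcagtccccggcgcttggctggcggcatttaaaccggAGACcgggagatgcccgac
Bmp4: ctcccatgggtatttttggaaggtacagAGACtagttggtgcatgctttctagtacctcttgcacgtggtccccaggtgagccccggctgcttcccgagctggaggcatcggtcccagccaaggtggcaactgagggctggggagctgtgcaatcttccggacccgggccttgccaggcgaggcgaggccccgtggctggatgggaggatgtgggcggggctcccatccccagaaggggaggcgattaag
Bmpr1b: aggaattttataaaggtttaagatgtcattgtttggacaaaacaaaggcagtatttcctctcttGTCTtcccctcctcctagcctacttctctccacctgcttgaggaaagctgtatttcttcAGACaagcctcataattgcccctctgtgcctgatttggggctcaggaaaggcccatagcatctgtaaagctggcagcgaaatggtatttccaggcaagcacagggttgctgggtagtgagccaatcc
Chrd: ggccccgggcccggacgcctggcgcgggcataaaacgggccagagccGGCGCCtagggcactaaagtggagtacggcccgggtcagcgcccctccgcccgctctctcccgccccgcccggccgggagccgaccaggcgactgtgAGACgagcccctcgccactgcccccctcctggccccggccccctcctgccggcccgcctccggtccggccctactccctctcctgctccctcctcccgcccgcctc

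GGCGCC occurred 1 time in the sequences of Bmpr1a, Grem1 and Chrd, and 0 times in those of Bmp4 and Bmpr1b. GTCT or AGAC occurred 0 times in the Bmpr1a stretch, 4 times in Grem1, 1 time in Bmp4, 2 times in Bmpr1b and 1 time in Chrd. Of 32851 mouse promoter windows of 250 bases, 9.59% held GGCGCC and 82.9% held GTCT or AGAC, so the Smad box in particular is common. These shares were not matched for GC content, and no enrichment was tested. The full windows of Bmpr1a, Grem1 and Chrd were 78.8%, 72% and 78% GC, those of Bmp4 and Bmpr1b 63.2% and 46.8%. The full windows of Bmpr2 and Bmp6, which lie in annotated exons and are not printed, held GGCGCC 1 and 0 times and GTCT or AGAC 0 and 3 times. That of Kcp, a gene of the wider pathway list that rose in both genotypes, is also not printed. It held GGCGCC 0 times and GTCT or AGAC 3 times. A match describes letters in a window and is not a site of binding.

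After injury the ligand Gdf5 and the receptor Bmpr1a were higher in both genotypes. In Trem2-/- mice Bmp2, Nog and Chrdl1 were also higher, while Bmp4, Bmp6 and Grem1 passed the test in neither genotype. A gene was called at a Benjamini-Hochberg adjusted p under 0.05 in limma, fitted on log2(CPM + 1) over 13173 genes, and "rose" or "fell" is used for called genes. The added 1 CPM makes the fold change of a weakly expressed gene such as Grem1 look smaller than it is. Of the 9 genes 2 were called in WT mice, both higher, where 28.5% of all genes tested were called. Trem2-/- mice had 5 of 9 called, all higher, where 53.2% of all genes tested were called, so the members' shares of 22.2% and 55.6% lay near the background in both genotypes. Counting higher genes alone, the background was 15.9% in WT and 26% in Trem2-/- mice. The rule the authors used takes genes by unadjusted p with a minimum fold change, and it called 2 members in WT (37.4% of all genes) and 6 in Trem2-/- mice (54.5%), the sixth being Bmpr2. All D7 libraries lay above all D0 libraries for 2 members in WT mice, where the groups of 22.2% of all genes were apart (12.9% higher at D7), and for 5 members in Trem2-/- mice, where 52.4% were apart (26.1% higher). Nog is counted among the 5 by a margin below the printed digits, its nearest D0 and D7 libraries both being at 4.17 CPM. The median log2 fold change of the members was 0.48 in WT and 1.01 in Trem2-/- mice, against -0.04 in both genotypes for all genes tested.

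**Figure D1:**
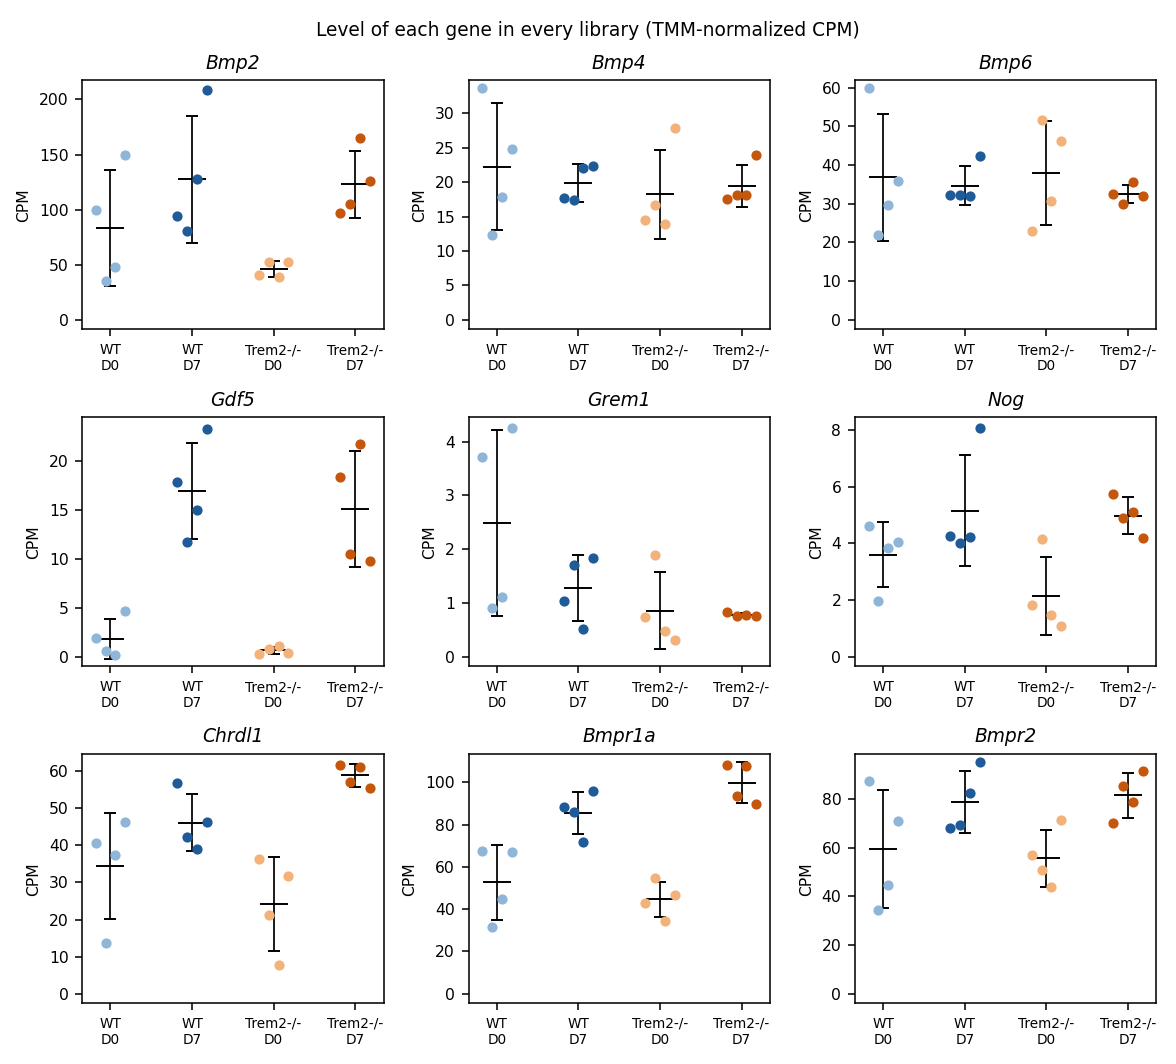
TMM-normalized CPM (y axes, linear, 1 panel per gene) of the 9 genes in each of the 4 groups (x axes). Points are libraries, long dashes are group means and bars are SD (n = 4). Gdf5 lies at 9.76 CPM or more in every D7 library and at 4.68 CPM or less in every D0 library, while the groups of Bmp4 and Bmp6 overlap throughout.

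Gdf5, the joint-forming ligand, showed the largest injury difference of the 9 genes in both genotypes. It lies on chromosome 2 from 155941023 to 155945367 on the minus strand (GENCODE M21, GRCm38). Its level was 1.97, 0.574, 0.160 and 4.68 CPM in the 4 WT D0 libraries and 17.8, 11.7, 14.96 and 23.3 CPM at WT D7. Trem2-/- libraries had 0.269, 0.821, 1.13 and 0.386 CPM at D0 and 18.3, 10.5, 21.7 and 9.76 CPM at D7. Every D7 library of a genotype lay above every D0 library. The mean went from 1.85 ± 2.04 (SD, n = 4) to 16.9 ± 4.92 CPM in WT mice, a ratio of 9.17, and from 0.652 ± 0.399 to 15.1 ± 5.88 CPM in Trem2-/- mice, a ratio of 23.1. The log2 fold change was 2.89 in WT (standard error 0.40, limma with Benjamini-Hochberg adjustment, adjusted p = 0.000624) and 3.24 in Trem2-/- mice (standard error 0.40, adjusted p = 2.945e-05). The D0 levels rest on few reads, 3 to 86 per library in WT and 4 to 19 in Trem2-/- mice, so the ratios are less certain than the direction. Exons of Gdf5 overlap 936 bases of Gm15557 on the opposite strand, and since the sources do not say whether counting used strand, reads of the pair cannot be told apart. In bulk libraries such as these, a change in the number of cells of a type and a change in RNA per cell cannot be told apart, for Gdf5 and for every gene below.

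Bmp2, a ligand that drives cartilage and bone formation, was the most abundant of the 9 genes per length of exon in every group. It lies on chromosome 2 from 133552159 to 133562885 on the plus strand. It was 99.6, 35.5, 48.0 and 149.8 CPM at WT D0 and 93.9, 80.7, 127.5 and 208.5 CPM at WT D7. WT mice differed among themselves by more than injury moved them, with D0 libraries spread over 4.22-fold, and the groups overlapped. In Trem2-/- mice it was 40.6, 52.8, 38.5 and 52.6 CPM at D0 and 96.6, 105, 165 and 126 CPM at D7, with all D7 libraries above all D0 libraries. The log2 fold change was 1.38 in Trem2-/- mice (standard error 0.38, limma, Benjamini-Hochberg adjusted p = 0.00634) and 0.74 in WT mice (95% interval -0.06 to 1.53, adjusted p = 0.146). Without WT D0 replicate 4, the highest uninjured library, the WT value was 1.09 with an adjusted p of 0.0258 in limma, so that 1 library decided the WT call.

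Bmp4 and Bmp6, ligands expressed by many stromal and endothelial cells, differed between D0 and D7 by less than the spread between replicates. Bmp4 (chromosome 14, 46383520 to 46390669, minus strand) averaged 22.2 ± 9.21 CPM (SD, n = 4) at WT D0, 19.9 ± 2.71 at WT D7, 18.2 ± 6.50 at Trem2-/- D0 and 19.5 ± 3.00 at Trem2-/- D7. Bmp6 (chromosome 13, 38345107 to 38500302, plus strand) averaged 36.8 ± 16.4, 34.7 ± 5.06, 37.9 ± 13.4 and 32.5 ± 2.35 CPM in the same order. The individual D0 libraries ranged from 12.4 to 33.7 CPM for Bmp4 and from 21.8 to 59.9 CPM for Bmp6, and the D7 libraries lay within those ranges. The 95% intervals of the log2 injury difference were -0.62 to 0.47 in WT and -0.41 to 0.68 in Trem2-/- mice for Bmp4. For Bmp6 they were -0.56 to 0.57 and -0.71 to 0.42. Exons of Bmp4 overlap Gm15217 by 89 bases and those of Bmp6 overlap Txndc5 by 224 bases, on the opposite strand in both cases.

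Nog, the antagonist noggin that binds BMP2 and BMP4 tightly, was a gene of low level. It lies on chromosome 11 from 89300638 to 89302332 on the minus strand. It was 4.601, 1.96, 3.83 and 4.03 CPM at WT D0 and 4.25, 4.02, 4.24 and 8.08 CPM at WT D7, and the groups overlapped. At Trem2-/- D0 it was 1.81, 4.17, 1.49 and 1.08 CPM, and at Trem2-/- D7 it was 5.75, 4.89, 5.09 and 4.17 CPM. The highest D0 library and the lowest D7 library of Trem2-/- mice were level at 4.17 CPM, while the other 3 uninjured libraries lay far below the injured ones. Its log2 fold change was 1.01 in Trem2-/- mice (standard error 0.27, limma, Benjamini-Hochberg adjusted p = 0.00592) and 0.41 in WT mice (95% interval -0.17 to 0.99, adjusted p = 0.261).

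Chrdl1, chordin-like 1, an antagonist of BMP4 in particular, separated the injured from the uninjured Trem2-/- mice. It lies on the X chromosome from 143285674 to 143394262 on the minus strand. It was 36.4, 21.2, 7.75 and 31.6 CPM at Trem2-/- D0 and 61.6, 57.1, 61.1 and 55.4 CPM at D7. The injured libraries stood close together, with a coefficient of variation of 5.16%, and all lay above the uninjured ones, which varied by 52.3%. In WT mice it was 40.6, 13.8, 37.3 and 46.2 CPM at D0 and 56.8, 42.2, 39.0 and 46.3 CPM at D7, and the groups overlapped. On the log2 scale the injury difference was 1.44 in Trem2-/- mice (standard error 0.39, limma, Benjamini-Hochberg adjusted p = 0.00654) and 0.52 in WT mice (95% interval -0.31 to 1.36, adjusted p = 0.322).

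Grem1, gremlin 1, an antagonist of BMP2 and BMP4, had the lowest mean of the 9 genes per kilobase of exon in every group, with 4 to 78 reads per library. In CPM the mean of Gdf5 was lower still in both uninjured groups. It lies on chromosome 2 from 113746164 to 113758646 on the minus strand. It was 3.71, 0.908, 1.12 and 4.25 CPM at WT D0 and 1.04, 1.70, 0.517 and 1.84 CPM at WT D7. At Trem2-/- D0 it was 0.739, 1.89, 0.477 and 0.309 CPM, and at D7 it was 0.840, 0.758, 0.784 and 0.751 CPM. A pair of WT D0 libraries stood above all others, and the groups overlapped in each comparison made. The log2 injury difference was -0.52 in WT (95% interval -1.21 to 0.18) and 0.01 in Trem2-/- mice (95% interval -0.68 to 0.71), and neither was called.

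Bmpr1a, the type I receptor also known as ALK3, rose in both genotypes. It lies on chromosome 14 from 34410734 to 34503341 on the minus strand, and 290 exon bases overlap Gm17110 on the opposite strand. It was 67.5, 31.7, 44.6 and 66.9 CPM at WT D0 and 88.4, 85.9, 72.0 and 95.7 CPM at WT D7. The Trem2-/- libraries had 43.1, 54.6, 34.6 and 46.6 CPM at D0 and 108, 93.6, 108 and 89.6 CPM at D7. No injured library of either genotype fell into the range of the uninjured libraries. The log2 fold change was 0.75 in WT (standard error 0.20, limma, Benjamini-Hochberg adjusted p = 0.0148) and 1.15 in Trem2-/- mice (standard error 0.20, adjusted p = 0.000293). The WT call was lost without WT D0 replicate 3 (adjusted p = 0.0509 in limma) and with only the WT groups in the fit (adjusted p = 0.0617).

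Bmpr2, the type II receptor that pairs with Bmpr1a, was higher on average after injury without passing the threshold. It lies on chromosome 1 from 59763400 to 59879014 on the plus strand. It was 87.4, 34.3, 44.4 and 71.1 CPM at WT D0 and 67.9, 69.4, 82.5 and 95.3 CPM at WT D7. In Trem2-/- mice it was 56.9, 50.8, 43.6 and 71.1 CPM at D0 and 70.2, 85.1, 78.6 and 91.6 CPM at D7, so that 1 uninjured library lay just above the lowest injured one. The log2 fold change was 0.56 in Trem2-/- mice (standard error 0.24, limma, Benjamini-Hochberg adjusted p = 0.0572) and 0.48 in WT mice (standard error 0.24, adjusted p = 0.129). The WT value was 0.70 (adjusted p = 0.0214 in limma) without WT D0 replicate 1, and the Trem2-/- value was 0.68 (adjusted p = 0.0315) without Trem2-/- D0 replicate 4.

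**Figure D2:**
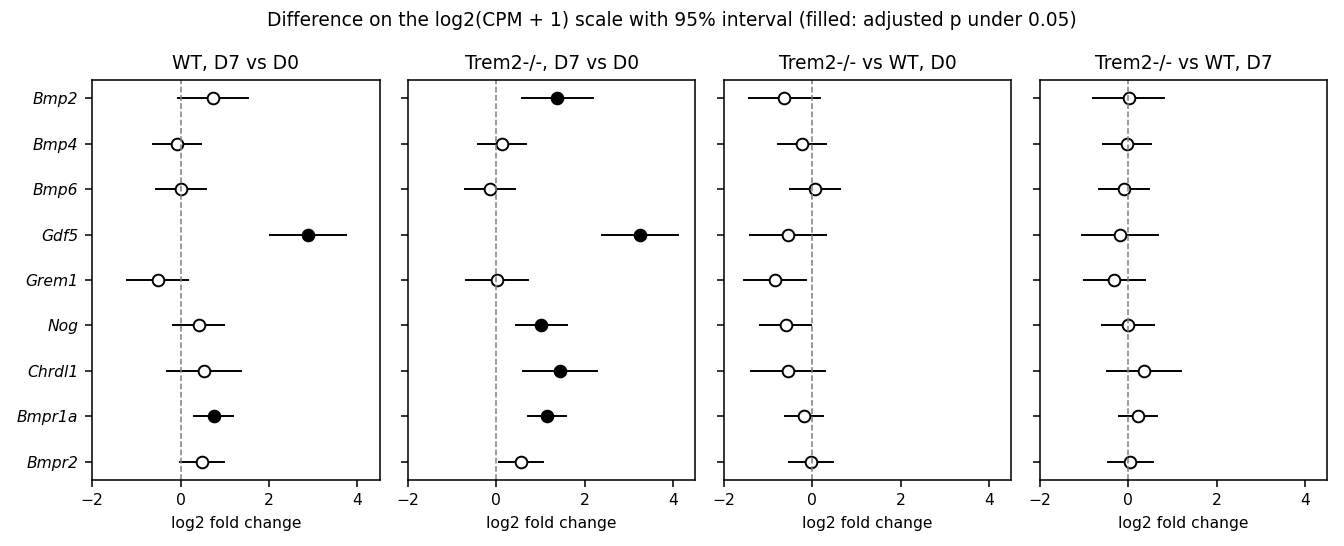
Log2 fold change on the log2(CPM + 1) scale (x axes) of the 9 genes (y axis) in 4 comparisons, with 95% intervals from limma as bars (filled points: adjusted p under 0.05). Gdf5 and Bmpr1a are filled in both injury panels, Bmp2, Nog and Chrdl1 in Trem2-/- mice only, and no point is filled in either genotype panel.

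The share of leukocyte RNA moved with these differences. With the mean log2 level of the 6 pan-leukocyte genes as a covariate in the limma fit, 1 of the 9 genes was called in WT mice, Gdf5 at an adjusted p of 0.0469, and 0 in Trem2-/- mice. The share of all genes called with this covariate was not counted, so a loss of calls particular to the 9 genes is not shown. The log2 fold change in Trem2-/- mice then was 2.09 for Gdf5 (adjusted p = 0.207 in limma), 0.71 for Nog (0.565), 0.46 for Bmp2 (0.807), 0.17 for Bmpr1a (0.836) and 0.16 for Chrdl1 (0.939). The leukocyte score was 9.09 to 9.95 at Trem2-/- D0 and 7.56 to 7.93 at Trem2-/- D7, with no overlap, so the injury state and the leukocyte level cannot be told apart in these mice. In WT mice the scores were 8.79 to 9.80 and 7.94 to 9.04. The summed level of the 6 fibroblast genes was 4210 to 31040 CPM at WT D0, 44550 to 63350 at WT D7, 3860 to 7953 at Trem2-/- D0 and 61810 to 80570 at Trem2-/- D7. That of the 6 chondrocyte genes was 667 to 12180, 27920 to 71000, 1002 to 3817 and 26120 to 40160 CPM in the same order. The part of fibroblast and chondrocyte RNA in the differences of the 9 genes was not tested.

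Trem2-/- and WT mice were compared next, at each state of the joint. At D0 limma called 0 of the 9 genes with adjustment (0% of all genes), and at D7 it also called 0 (0% of all genes). voom with limma and edgeR quasi-likelihood on the recovered reads called 0 of 9 at both states. At D0, 8 of the 9 genes had a lower mean log2 level in Trem2-/- mice, and 2 of them, Grem1 and Nog, had an unadjusted p under 0.05, where 2.92% of all genes did. Both met the authors' rule, which called 2.15% of all genes, and 1.37% of all genes as lower in Trem2-/- mice. Grem1 was 2.49 ± 1.73 CPM (SD, n = 4) in WT and 0.855 ± 0.716 in Trem2-/- mice (log2 fold change -0.84, 95% interval -1.53 to -0.15, limma, Benjamini-Hochberg adjusted p = 0.9996). Nog was 3.60 ± 1.15 and 2.14 ± 1.39 CPM (log2 fold change -0.60, 95% interval -1.18 to -0.02, adjusted p = 0.9996 in limma). The groups overlapped for both genes and for the other 7, where 0.979% of all genes had groups apart. With 1 spread per gene fitted over all 4 groups, intervals at D0, where most of the genes varied more, may be too narrow. Fibroblast and chondrocyte genes were also lower on median at Trem2-/- D0, by 0.75 and 1.77 on the log2 scale, with 0 of 6 called by limma in either list (1 of 6 and 3 of 6 at an unadjusted p under 0.05), and their part in the values of Grem1 and Nog was not tested.

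At D7, 0 of the 9 genes had an unadjusted p under 0.05, where 7.27% of all genes did (5.72% by the authors' rule). The fit took 1 spread per gene over all 4 groups, so for most genes the larger D0 spread enters and D7 intervals may be too wide. For Chrdl1 the SD of the log2 level was 0.23 at WT D7 and 0.074 at Trem2-/- D7, against 0.77 and 0.94 at D0. Fitting only the groups compared, limma with adjustment called no gene of the 9 at D7. The groups overlapped for all 9 genes, where those of 8.33% of all genes were apart. The largest differences were Chrdl1, at 58.8 ± 3.03 CPM in Trem2-/- and 46.1 ± 7.77 CPM in WT mice (SD, n = 4, log2 fold change 0.36, 95% interval -0.48 to 1.19), and Grem1 (log2 fold change -0.31, 95% interval -1.002 to 0.38). Gdf5 averaged 15.1 ± 5.88 CPM in Trem2-/- and 16.9 ± 4.92 CPM in WT mice, with an interval of -1.05 to 0.67 on the log2 scale. The median over the 9 genes was -0.54 at D0 and -0.00025 at D7, against 0.004 and 0.008 for all genes tested. The leukocyte sums were 1641 CPM or more at WT D7 and 1620 CPM or less at Trem2-/- D7, with 5 of the 6 genes at an unadjusted p under 0.05 and 0 called, and the part of this gap in the D7 values was not tested.

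The difference of the injury responses was tested as an interaction of genotype and injury. Its log2 value was above 0, a larger rise or smaller fall in Trem2-/- mice, for 8 of the 9 genes, and limma called 0 of 9 with adjustment (0% of all genes), as did edgeR and voom, with 0 of 9 at an unadjusted p under 0.05 (8.16% of all genes, and 7.79% by the authors' rule). Chrdl1 had a value of 0.91 (95% interval -0.27 to 2.10, limma, Benjamini-Hochberg adjusted p = 0.675), the highest on the log2(CPM + 1) scale, followed by Bmp2 at 0.65 (-0.48 to 1.78) and Nog at 0.60 (-0.22 to 1.42). That of Gdf5 depended on the scale because of its low D0 levels, at 0.35 here (95% interval -0.86 to 1.57), 0.57 with a pseudocount of 0.1 and 1.28 by edgeR, where Chrdl1 was at 0.86, and it was called in none of these. Bmp6 was the exception in sign at -0.15 (-0.95 to 0.65). The calls of Bmp2, Nog and Chrdl1 in Trem2-/- mice alone are thus not shown to differ from WT. The 4 comparisons share libraries, the D0 and D7 groups of each genotype, and their values are not independent.

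The order of the 9 genes by level was compared per kilobase of exon. Bmp2 was highest in all 4 groups, at 23.4 ± 14.7 CPM per kb (SD, n = 4) at WT D0, 35.9 ± 16.1 at WT D7, 13.0 ± 2.15 at Trem2-/- D0 and 34.6 ± 8.52 at Trem2-/- D7. Its spread (mean ± SD) overlapped those of Bmp4 and Bmp6 in both D0 groups and that of Bmpr1a at WT D0. At D0, Bmp4, Bmp6 and Bmpr1a followed at means of 7.05 to 9.89 CPM per kb and did not differ beyond their spread. By mean, Chrdl1, Bmpr2, Nog, Gdf5 and Grem1 came after them in that order in both genotypes. The spreads of Chrdl1 and Bmpr2 overlapped in both D0 groups, as did those of Gdf5 and Grem1. At D7, Bmpr1a stood second, at 13.5 ± 1.56 CPM per kb in WT and 15.7 ± 1.52 in Trem2-/- mice, above Bmp4 at 8.85 ± 1.21 and 8.66 ± 1.33. Gdf5 moved from 0.796 ± 0.881 CPM per kb to 7.30 ± 2.12 in WT and from 0.281 ± 0.172 to 6.51 ± 2.53 in Trem2-/- mice. It then lay among Bmp4, Bmp6 and Chrdl1 within their spread and above Nog, at 3.04 ± 1.15 and 2.94 ± 0.383. Grem1 had the lowest mean everywhere, at 0.189 to 0.601 CPM per kb.

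**Figure D3:**
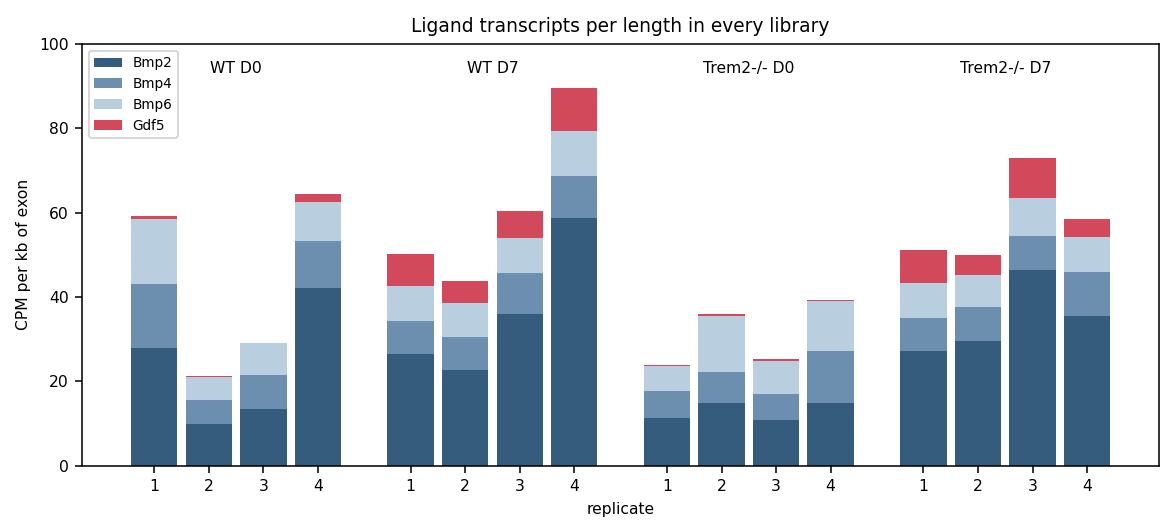
CPM per kb of exon (y axis, linear, from 0) of the 4 ligands, stacked for each library (x axis, replicate number, libraries placed by group). The Gdf5 segment is 0.236 to 3.13% of the stack in D0 libraries and 7.19 to 15.4% in D7 libraries.

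The make-up of the transcripts of the 4 member ligands, a share that does not depend on the scaling of a library, differed between D0 and D7. Other BMP ligands were expressed as well and are not part of this sum. Gdf5 was 0.236 to 3.13% of the summed per-kb level of the 4 ligands at WT D0 and 10.7 to 15.3% at WT D7. Its share in Trem2-/- mice was 0.425 to 1.93% at D0 and 7.19 to 15.4% at D7. Bmp4 went from 20.7 to 31.6% of the sum at Trem2-/- D0 to 11.1 to 18.2% at D7, and Bmp6 from 24.6 to 36.9% to 12.5 to 16.3%, with no overlap for either. In WT mice the shares of Bmp4, 17.2 to 27.4% at D0 and 11.1 to 17.7% at D7, overlapped, as did those of Bmp6. The ratio of Bmp2 to Bmp4 per kb was 1.20 to 1.99 at Trem2-/- D0 and 3.33 to 5.74 at D7, without overlap, and 1.69 to 3.81 and 2.93 to 5.89 in WT mice, with overlap. These shares were not tested, and they follow from the levels above. The ratio of Chrdl1 to Bmp2 per kb overlapped between D0 and D7 in both genotypes, at 0.106 to 0.472 over all 16 libraries. The ratio of Bmpr1a to Bmpr2 per kb averaged 2.58 ± 0.280 at WT D0 and 3.13 ± 0.568 at WT D7 (SD, n = 4), and 2.32 ± 0.507 and 3.53 ± 0.725 in Trem2-/- mice, and overlapped in both.

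A list of 55 other genes of the pathway, of which 46 were found and 44 tested, gave a like picture. In WT mice 11 of 44 rose and 0 fell (25.0% called), and in Trem2-/- mice 21 rose and 4 fell (56.8% called), again close to the shares of all genes, 28.5% and 53.2%. Counting higher genes alone, the shares of all genes were 15.9% and 26%, so the calls in this list leaned more to rises than the calls over all genes. The 11 genes that rose in WT mice also rose in Trem2-/- mice. Adjusted p-values in this paragraph and the next are from limma with Benjamini-Hochberg adjustment. Among receptors, Bmpr1b, the type I receptor that Gdf5 prefers, rose from 3.06 to 11.9 CPM in WT (log2 fold change 1.88, adjusted p = 0.00132) and from 1.62 to 11.9 CPM in Trem2-/- mice (2.31, adjusted p = 5e-05). The type I receptor Acvr1 also rose, by 1.13 in WT and 1.62 in Trem2-/- mice on the log2 scale, and Acvrl1, a receptor of endothelial cells, fell by 0.74 in Trem2-/- mice. Of the other ligands, 1 of 5 tested rose in either genotype, Bmp8a, which was below 3.3 CPM on average in every group. Among co-receptors, Rgma rose by 0.88 and 1.12, Rgmb rose by 0.71 in Trem2-/- mice, and Hfe2, a regulator of hepcidin and a gene of muscle and liver, fell by 1.05 there, beside skeletal muscle markers of which 4 of 4 fell.

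In the list of antagonists and related secreted genes, the 3 members left out, 5 of 11 rose in WT and 6 of 11 in Trem2-/- mice, and none fell. By the authors' rule 5 of the 11 were higher and 1 was lower in WT mice. How each of these genes acts on BMP signalling in the joint was not tested. For this list and those below, the share of all genes tested that rose was 15.9% in WT and 26% in Trem2-/- mice. No list was tested as a set. Chrd, chordin, which binds BMPs and is the founding relative of Chrdl1, rose from 6.83 to 19.7 CPM in WT (log2 fold change 1.49, adjusted p = 0.00238) and from 5.23 to 24.7 CPM in Trem2-/- mice (2.09, adjusted p = 4.245e-05). Kcp rose by 1.32 and 2.41 and Bmper by 1.35 and 1.76 on the log2 scale. Bmp1, the protease that cuts chordin and procollagens and is not a BMP ligand in spite of its name, rose from 134 to 419 CPM in WT (1.85, adjusted p = 0.00444) and from 94.4 to 531 CPM in Trem2-/- mice (2.54, adjusted p = 0.000115). Of the 6 genes for Smads and Smurfs, Smad5 rose in WT mice (0.56), and all 6 rose in Trem2-/- mice, with Smad9, Smad5 and Smad1 at 1.07, 0.87 and 0.80. Targets of the pathway did not move as a block. In WT mice 0 of 10 were called by limma with adjustment and 2 of 10 had an unadjusted p under 0.05, 1 higher and 1 lower. The lower one was Id1 (log2 fold change -0.54, adjusted p = 0.078). In Trem2-/- mice Dlx5 and Smad6 rose by 0.98 and 0.62, whereas Id1 fell by 0.94 and Atoh8 fell by 0.75, and the other 6 did not pass. The interaction of genotype and injury was not called for Id1 (adjusted p = 0.767). Between genotypes limma called 0 of the 44 genes at D0 and at D7, where 4 and 0 had an unadjusted p under 0.05.

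**Figure D4:**
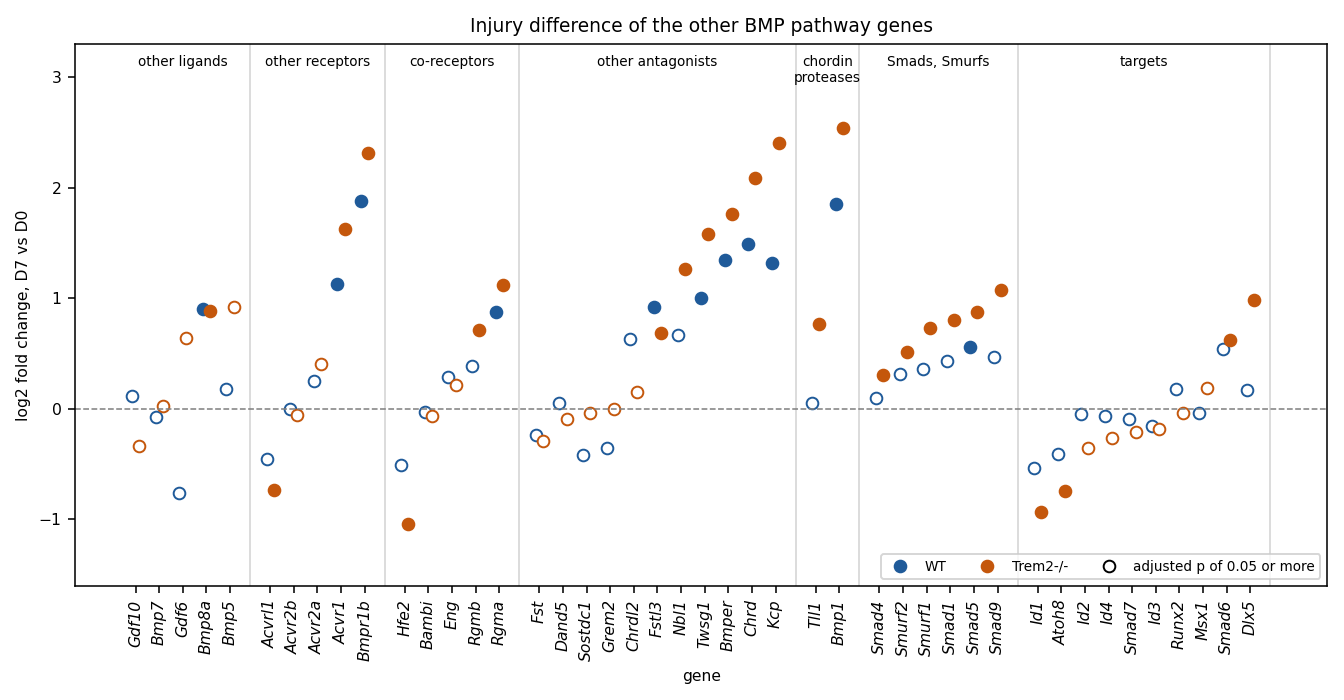
Log2 fold change, D7 vs D0 (y axis), of 44 other BMP pathway genes (x axis), grouped by role and drawn for WT (blue) and Trem2-/- mice (orange). Filled points have an adjusted p under 0.05 in limma. The label "other antagonists" covers antagonists and related secreted genes. Filled points under that label and for chordin proteases all lie above 0, while Id1 and Atoh8 in the targets and Acvrl1 in the receptors lie below 0 in Trem2-/- mice.

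Libraries of one group differed more before injury than after it for 8 of the 9 genes in each genotype. The coefficient of variation of the CPM had a median over the 9 genes of 41.4% at WT D0 and 35.7% at Trem2-/- D0, and of 16.9% and 11.2% at D7. The exceptions were Nog in WT mice, at 31.8% and 38.0%, and Bmp2 in Trem2-/- mice, at 16.6% and 24.6%. WT D0 replicate 2 was the lowest of its group for 8 of the 9 genes. That library had 4210 CPM of fibroblast, 667 CPM of chondrocyte and 952 CPM of endothelial markers, the lowest of its group for each, and 5454 CPM of leukocyte markers against 2869 to 5735 in the group. WT D7 replicate 4 was the highest of its group for 8 of the 9 genes, and it also had the highest fibroblast and chondrocyte sums, 63350 and 71000 CPM. Without WT D0 replicate 2, 2 members were called in WT mice. Of the 8 WT libraries left out in turn, WT D0 replicate 3 lowered that count, to 1, and WT D0 replicates 1 and 4 each raised it to 3.

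Once group means were taken out, the 9 genes varied along different marker lists over the 16 libraries. Pearson's r of these deviations was 0.89 between Bmpr1a and the fibroblast markers, 0.83 for Chrdl1, 0.76 for Bmp2 and 0.75 for Grem1. Bmp4 and Bmp6 ran with the endothelial markers instead, at 0.74 and 0.78, where Gdf5 was at -0.10 and Grem1 at 0.18, and with the mural (vessel wall) markers, at 0.75 and 0.85. The mural markers did not set them apart, since Bmpr1a was at 0.80, Bmpr2 at 0.65 and Chrdl1 at 0.63. Nog ran highest with the chondrocyte markers at 0.76, and Gdf5 with the osteoblast markers at 0.68. All 9 genes had a negative r with the pan-leukocyte markers, from -0.68 for Bmpr1a to -0.16 for Nog. The values share library, depth and total, n is 16 libraries in 4 groups, and they are given as a description. Since most of the genes varied more at D0, the D0 libraries tend to weigh more in them than the D7 libraries.

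**Figure D5:**
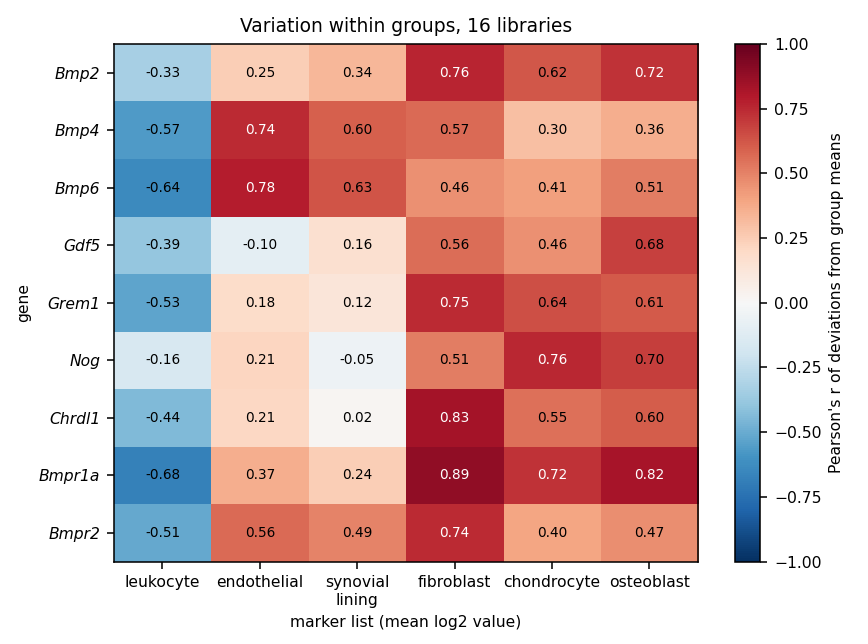
Pearson's r (colour and printed value, -1 to 1) of deviations from group means over 16 libraries, between each of the 9 genes (rows) and the mean log2 level of 6 marker lists (columns). The fibroblast column is highest for Bmpr1a and Chrdl1, the endothelial column for Bmp4 and Bmp6, and the leukocyte column is negative for all 9 genes.

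Among the members themselves, the same within-group r was highest for Bmp4 with Bmpr2 (0.93), Grem1 with Bmpr1a (0.85) and Bmp2 with Bmpr2 (0.80), and lowest for Gdf5 with Chrdl1 (0.11), although both of those genes rose after injury in Trem2-/- mice. With group differences included, and among genes averaging 5 CPM or more, the 3 genes with the pattern most like each member over the 16 libraries were found by Pearson's r. Gdf5 was nearest to Sdk2 (0.99), Ccdc88a (0.98) and Slc29a1 (0.98), and Bmpr1a to Lix1l, Sh3pxd2a and Ryk (0.99 each). Bmp2 was nearest to Slc23a2, Ptgis and Ctgf (0.96 each), and Chrdl1 to Rnase4 (0.95), Serpinf1 (0.94) and Lhfp (0.93). Nog was nearest to 3110079O15Rik (0.90), Chadl (0.89) and Ibsp (0.88), the last a gene of bone matrix. Bmpr2 was nearest to Mcc (0.97), Slc4a4 and Smurf2 (0.96 each), and the last of these belongs to the pathway list above. Bmp4 was nearest to Taf4b (0.93), Lifr and Klhl29 (0.91 each) and Bmp6 to Rnd2 (0.94), Spry4 (0.93) and Ccnd2 (0.92). Grem1, at its low read counts, had no close neighbour, with Znhit6 at 0.72, Ptprz1 at 0.69 and Cpm at 0.68.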

How the data were processed

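Bulk RNA-seq libraries (n = 4 per group, 16 in all) were prepared from uninjured and injured knees of both genotypes. The authors used bcl2fastq for demultiplexing, STAR for alignment (mm10), featureCounts for gene counts and edgeR's TMM for scaling, and the deposited signal values are TMM-normalized CPM. Versions, annotation, strand setting and any low-count filter are not given in the sources used here.

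Within each library, 100% of the deposited values came out as whole reads (within 0.01 read), so reads were recovered for the alternatives, with 11567073 to 32867818 reads per library. Fcgr1, listed on 2 rows, was counted once. Replicates differed by more than sampling noise, with a chi-square of at least 10.4 for each degree of freedom.

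Genes reaching 1 CPM in 4 or more of the 16 libraries were compared on log2(CPM + 1) with limma 3.58.1 (eBayes with trend, R 4.3.3) over all 4 groups, with Benjamini-Hochberg adjustment over 13173 genes. Scripts were tested on simulated data. The 9 members, the pathway and marker lists and the tests were chosen with earlier results of these data known. All members are named, as are up to 3 called genes with the largest change in each pathway list and the 3 genes most like each member by Pearson's r. Smad6 was named in addition, to complete a count, after its value was seen. Positions and exon lengths are from GENCODE M21 and promoter windows from RefSeq (GRCm38.p6). Alternatives were pseudocounts of 0.1 and 5, other filters, quantile and median-of-ratios scaling, fits of only the groups compared, no trend, a replicate block, a leukocyte covariate, each library left out, and voom or edgeR 4.0.16 quasi-likelihood on recovered reads.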

Additional observations from a re-analysis of the deposited data

Results flagged for a closer look

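In each group of 4 libraries the gap between an extreme value and its nearest neighbour, divided by the group's range, was compared with Dixon's 95% critical value. Of 36 groups (9 genes by 4 groups), 3 passed, and chance alone passes about 1 in 20. Nog at WT D7 had 1 high library, replicate 4 at 8.08 CPM against 4.02 to 4.25 CPM in the other three (ratio 0.944). Bmp6 at WT D7 was highest in the same library, 42.3 CPM against 32.1 to 32.2 CPM (ratio 0.987), and that library also had the highest fibroblast and chondrocyte marker sums of its group. Bmp4 at Trem2-/- D7 was high in replicate 4, 23.9 CPM against 17.6 to 18.2 CPM (ratio 0.902), which had the highest endothelial marker sum of its group, 1962 CPM against 1439 to 1785 CPM. The part of these markers in the 3 values was not tested. Without WT D7 replicate 4, the difference between genotypes at D7 was 0.20 for Nog and 0.01 for Bmp6 on the log2 scale.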

How the results depend on the processing

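Gdf5 in WT mice stayed called under 20 of 20 alternatives, with an adjusted p of at most 0.0469 in limma. The count of members called after injury in WT mice was 1 with only the groups compared, 1 with the leukocyte score as a covariate, and 1 to 3 when each library was left out in turn. In Trem2-/- mice it was 0 with the leukocyte covariate and 5 to 6 with libraries left out. The count between genotypes at D0 was 2 by the authors' rule. With a replicate block the counts were 2 in WT and 6 in Trem2-/- mice, Bmpr2 being added (0.56, limma adjusted p = 0.0379). Same-numbered libraries of different groups did not deviate together (r -0.51 to 0.41 over 24 pairs, 11 above 0.1, 7 best matched to their own number), so the numbers were not taken as pairing. Bmpr2 was also called in Trem2-/- mice with median-of-ratios scaling and with only the groups compared. With a mean of 5 CPM required, Nog and Grem1 gave no value. Low read counts limit Grem1, Nog and uninjured Gdf5.

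All changes of sign concerned values that had not been called, and the cause was not tested. On the log2 scale, Bmp6 after injury in WT mice was -0.0063 with a pseudocount of 5, -0.019 with quantile normalization, -0.086 by edgeR and -0.60 with the leukocyte covariate. Grem1 after injury in Trem2-/- mice was -0.010, -0.018, -0.14 and -1.24 in the same order. Nog between genotypes at D7 was 0.0064 with a pseudocount of 0.1, 0.031 with quantile normalization, 0.0033 with median-of-ratios scaling and 0.056 by voom, and Bmp2 there was -0.055 by edgeR. With the leukocyte covariate, the injury difference was -0.11 for Chrdl1 in WT mice, and -0.91 for Bmp4 and -0.31 for Bmpr2 in Trem2-/- mice. The genotype difference with it was 0.10 for Bmpr2 at D0, and -0.33 for Bmp2, -0.11 for Chrdl1, -0.14 for Bmpr1a and -0.27 for Bmpr2 at D7. The interaction with it was -0.32 for Bmp4, -0.23 for Gdf5, -0.11 for Grem1, -0.093 for Bmpr1a and -0.37 for Bmpr2.

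With each library left out, values that changed sign ranged as follows. After injury in WT mice Bmp4 was -0.31 to 0.15 and Bmp6 -0.21 to 0.26, and in Trem2-/- mice Bmp6 was -0.36 to 0.022 and Grem1 -0.13 to 0.25. Between genotypes at D0, Bmp6 was -0.15 to 0.33 and Bmpr2 -0.25 to 0.19. At D7, Bmp2 was -0.17 to 0.28, Bmp4 -0.13 to 0.027, Bmp6 -0.13 to 0.012, Nog -0.082 to 0.20 and Bmpr2 -0.012 to 0.15. The interaction was -0.016 to 0.44 for Bmp4, -0.41 to 0.062 for Bmp6, -0.070 to 0.69 for Gdf5 and -0.14 to 0.30 for Bmpr2.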
